A study of Mus musculus with 6 samples.

Results

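The proteasome genes described here are the rows of a mouse heart RNA-seq count table whose symbol is Psma, Psmb, Psmc, Psmd, Psme, Psmf or Psmg followed by a digit, without pseudogenes. The rule found 50 rows of 46095 in the table. It uses symbols alone and no measured value. One of the 50, Psmc3ip, fits the rule by its name only, since it encodes a meiotic recombination protein, and it is kept apart below. RNA was sequenced from 3 hearts of STAT3cKO mice, whose cardiomyocytes lack STAT3, and from 3 hearts of wild-type mice. The labels name neither the Cre line nor the strain, age or sex, and they do not say that each library came from a separate animal. The p-values therefore measure the spread between these libraries, which may be technical. The study looked for pathways tied to heart function that differ in hearts without cardiomyocyte STAT3. The libraries held 15416877 to 17867944 counted reads in STAT3cKO hearts and 16168682 to 18264052 in wild-type hearts.

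The proteasome degrades proteins that carry ubiquitin chains. Its 20S core is a barrel of α rings that gate the entry and β rings that hold the catalytic sites, and the 19S cap adds ATPases that unfold substrates and non-ATPase subunits that bind and remove ubiquitin. Interferon can replace the catalytic β subunits by immune subunits, and other activators can take the place of the 19S cap. In the heart the proteasome turns over sarcomere and signalling proteins. When its activity falls, the transcription factor NFE2L1 is known to raise most subunit genes together.

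Stat3, the targeted gene, checks the labels. It had 775, 982 and 1088 reads in STAT3cKO hearts 3, 6 and 91, against 1937, 1439 and 1778 reads in wild-type hearts 1, 3 and 4. All 3 STAT3cKO hearts lay below all 3 wild-type hearts, and the log2 fold change was -0.68 ± 0.10 (SE, adjusted p = 0.000677) in edgeR's quasi-likelihood test, and -0.40 (adjusted p = 0.0128) with the length and GC offset described below. Whole hearts hold many cell types besides cardiomyocytes, so fewer cells of a type and less RNA per cell cannot be told apart in any value below. Cardiomyocyte markers summed to 66875 to 79050.3 CPM in STAT3cKO hearts, against 62449.5 to 68797 CPM in wild-type hearts, with 4 of 11 genes higher and 2 lower in edgeR. Endothelial markers summed to 917 to 1057 CPM in STAT3cKO hearts, against 1486 to 1681 CPM in wild-type hearts, with 8 of 10 lower. Mural markers summed to 687 to 812 CPM in STAT3cKO hearts, against 1084 to 1257 CPM in wild-type hearts, with 5 of 8 lower. Over all genes tested, 13.2% were called higher and 12.6% lower. Vessel genes were thus mostly lower in edgeR while muscle genes were mixed. The median transcript was 4043 nt for endothelial and 4759.5 nt for mural markers, against 2840.5 nt for all genes tested. With the offset Tie1, Rgs5, Cspg4, Tnni3 and Ryr2 were no longer called (adjusted p = 0.101, 0.113, 0.0654, 0.0728 and 0.358). Myl3 was then called lower (0.0268). Leukocyte markers summed to 304 to 431 CPM in STAT3cKO hearts, against 407 to 515 CPM in wild-type hearts, with 6 of 9 lower and 1 higher. Fibroblast markers summed to 1721 to 2464 CPM in STAT3cKO hearts, against 1342 to 1984 CPM in wild-type hearts, with 1 of 8 higher and 2 lower. Ptprc of the leukocyte list and Col1a1 of the fibroblast list were no longer called with the offset (edgeR adjusted p = 0.0687 and 0.269). Erythroid markers summed to 335 to 686 CPM in STAT3cKO hearts, against 90.8 to 159 CPM in wild-type hearts, with 4 of 5 higher. The erythroid calls fell to 0 without the low-count filter, with the offset, or without any 1 of the 3 wild-type hearts, and to 1 without STAT3cKO heart 91. The testis markers Prm1, Tnp1 and Acrv1 had no read in any heart. The part of cell composition in the proteasome results was not tested.

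Proteasome transcripts were more abundant in the STAT3cKO hearts. Together the 50 rows took 3585, 3627 and 3638 CPM (counts scaled to the TMM library size) in STAT3cKO hearts 3, 6 and 91, against 3089, 2846 and 3042 CPM in wild-type hearts 1, 3 and 4. Of the 47 that passed the filter on low counts, 25 rose at an adjusted p under 0.05 in edgeR's quasi-likelihood test and 0 fell, while 22 did not pass. Over the whole table of 14484 tested genes, 13.2% were called higher in STAT3cKO hearts and 12.6% were called lower. The median log2 fold change of the 47 was 0.40, with 38 positive and 9 negative values, against -0.0016 over all genes tested. At an unadjusted p under 0.05, 2 of the 47 were lower in edgeR, where 2805 of all 14484 genes were, and 1 of the 47 in DESeq2. DESeq2 and limma-voom likewise called no member lower after adjustment. Counted by hearts, 35 members had every STAT3cKO heart above every wild-type heart, 2 had every STAT3cKO heart below, and 10 overlapped. Over all genes tested these shares were 21.5% above and 21.5% below.

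**Figure D1:**
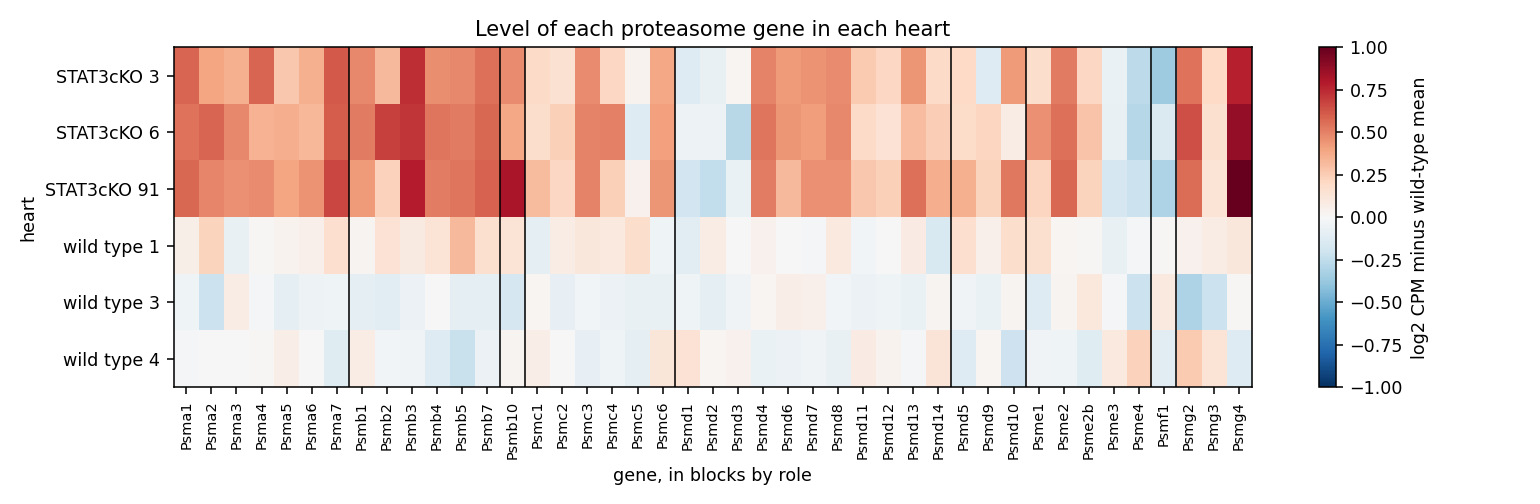
Log2 CPM of each proteasome gene in each heart, minus the mean of the 3 wild-type hearts. Rows are hearts with STAT3cKO on top, columns are genes in blocks by role, and the colour scale ends at 1 and -1. Psma8, Psmb6, Psmb9 and Psmc3ip, which had few reads, are left out. The 3 STAT3cKO rows are red over the α and β blocks and near 0 or blue for Psmc5, Psmd1, Psmd2, Psmd3, Psme3, Psme4 and Psmf1.

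Transcript length moved with the genotype difference across the whole table, so the calls were also made with a trend on transcript length and GC content removed from each heart. Over 13580 genes with a length, log2 fold change fell off with length at a Spearman's rho of -0.45, a description across genes, which are not independent replicates. Over the 47 proteasome genes rho was -0.43. Their median transcript of 1391 nt was shorter than the median of 2840.5 nt over all genes tested with a length. With the length and GC trend entered as an offset in edgeR, 16 of the 47 were higher and 0 lower, against 10.5% and 7.77% over all genes tested. The median log2 fold change of the members was then 0.22, with 37 positive and 10 negative values, against 0.02 over all genes, and rho over the members was 0.06. Of the 25 genes called at first, 14 were called with the offset too: Psma1, Psma2, Psma3, Psma7, Psmb1, Psmb3, Psmb4, Psmb7, Psmc3, Psmc6, Psmd4, Psmd7, Psmd8 and Psmd13. These 14 were also called higher in each of the 15 alternative fits, which include the offset and of which many differ little from the first fit. The offset calls of Psma2 and Psma3 rest on long representative transcripts, as given below. Psmd5 and Psmd11 were called with the offset but not in the first fit.

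**Figure D2:**
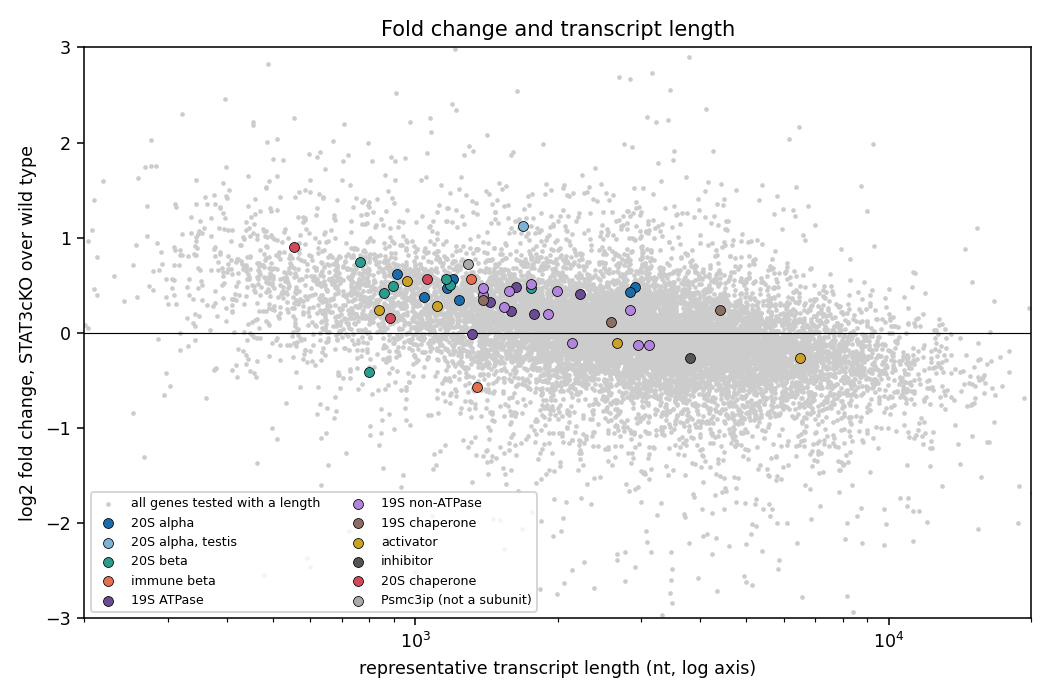
Log2 fold change (STAT3cKO over wild type) against the length of the representative transcript in nt (log axis). Grey points are all genes tested with a length and coloured points are proteasome genes by role. Most proteasome genes lie left of the median length of all genes, 2840.5 nt, and above 0.

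The 7 α genes of the core ring all rose (13.2% of all genes did), with a median log2 fold change of 0.47. Psma7, on chromosome 2 (180036374 to 180042433, minus strand, GRCm38), had 112, 111 and 116 CPM in STAT3cKO hearts 3, 6 and 91, against 82.2, 70.8 and 67.3 CPM in wild-type hearts 1, 3 and 4. Its STAT3cKO hearts lay close together and all stood above the wild-type hearts, with a log2 fold change of 0.62 ± 0.09 (SE, adjusted p = 0.000826) in edgeR. Psma1, on chromosome 7 (114264606 to 114276118, minus strand), had 123, 120.0 and 123 CPM in STAT3cKO hearts 3, 6 and 91, against 85.8, 80.1 and 81.3 CPM in wild-type hearts 1, 3 and 4. The groups did not overlap, and its log2 fold change was 0.56 ± 0.08 (SE, adjusted p = 0.000686) in edgeR. Psma2 had 82.4, 94.0 and 88.0 CPM in the STAT3cKO hearts, against 73.1, 54.2 and 62.5 CPM in the wild-type hearts, again with no overlap, and its log2 fold change was 0.48 ± 0.11 (SE, adjusted p = 0.00804). Psma4 had 116, 98.0 and 107 CPM in the STAT3cKO hearts, against 77.6, 75.9 and 77.6 CPM in the wild-type hearts, with a log2 fold change of 0.47 ± 0.09 (SE, adjusted p = 0.00265). Psma3, Psma5 and Psma6 had log2 fold changes of 0.43, 0.34 and 0.38. With the offset Psma1, Psma2, Psma3 and Psma7 were called, and Psma4, Psma5 and Psma6 were not, at edgeR adjusted p-values of 0.0871, 0.35 and 0.376. The log2 fold changes with the offset were 0.33 for Psma1, 0.48 for Psma2, 0.44 for Psma3, 0.23 for Psma4, 0.14 for Psma5, 0.11 for Psma6 and 0.33 for Psma7. The transcripts that represent Psma2 and Psma3 are 2911 and 2846 nt long, against 914 to 1239 nt for the other 5, and the per-length and offset values of both genes rest on those lengths. Psma5 was the least stable of the 7: its adjusted p in edgeR was 0.0218, 0.0539 without STAT3cKO heart 91 and 0.0976 without wild-type heart 3. Of its 50-base stretches 54.5% also occur in other genes.

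Psma8, the α subunit of the testis proteasome, had very few reads. It had 16, 31 and 18 reads in the STAT3cKO hearts, against 15, 7 and 12 reads in the wild-type hearts, and its log2 fold change of 1.12 ± 0.43 (SE, adjusted p = 0.0737) did not pass in edgeR. Its groups did not overlap by CPM.

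Promoter sequence was read because all 7 α genes rose in edgeR without the offset, although Psma4, Psma5 and Psma6 were not called with it. RefSeq (GRCm38.p6) gives a window from 250 bases before to 50 after the start for 42 of the 50 genes. Motifs were searched on both strands. The CCAAT box, which NF-Y binds, was spelled CCAAT, the antioxidant response element bound by NFE2L1 and NFE2L2 with small Maf proteins TGACNNNGC, and the site bound by STAT dimers TTCNNNGAA. A CCAAT box was in the windows of 5 of the 7 α genes (71.4%) and of 15 of the 42 genes (35.7%), against 41.1% of all 27025 genes with a window. The antioxidant element was in 6 of 42 (14.3%), against 14.0% of all genes, and the STAT site in 3 of 42 (7.14%), against 9.55%. The 3 genes with a STAT site were Psmb8, Psmd2 and Psmg1. No gene of the 42 held more than one kind of motif. By role, a CCAAT box was in 1 of 4 constitutive β genes with a window (25%) and 2 of 5 ATPases (40.0%). It was in 2 of 9 non-ATPase subunits (22.2%) and 0 of 3 core chaperones. The α genes are set apart here because all 7 had risen. That choice was made from the fold changes, so the α share is no test of a tie to them. One upstream stretch with a CCAAT box is shown for each of the 5 α genes, and 3 stretches with an antioxidant element in core or ATPase genes, with the motif in capitals. A match is a description of letters and says nothing of binding in these hearts.
Psma1, chr7:114276185-114276239, minus strand: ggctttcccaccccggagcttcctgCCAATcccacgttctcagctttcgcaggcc
Psma2, chr13:14613163-14613217, plus strand: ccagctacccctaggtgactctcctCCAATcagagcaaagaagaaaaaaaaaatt
Psma3, chr12:70974459-70974513, plus strand: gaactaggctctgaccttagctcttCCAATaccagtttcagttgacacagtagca
Psma6, chr12:55384061-55384115, plus strand: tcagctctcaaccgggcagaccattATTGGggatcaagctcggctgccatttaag
Psma7, chr2:180042631-180042685, minus strand: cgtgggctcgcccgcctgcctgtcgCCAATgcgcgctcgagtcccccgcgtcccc
Psmb5, chr14:54618009-54618067, minus strand: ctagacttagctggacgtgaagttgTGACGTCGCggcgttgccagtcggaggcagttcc
Psmb6, chr11:70525323-70525356, plus strand: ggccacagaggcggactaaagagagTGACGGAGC
Psmc6, chr14:45329574-45329630, plus strand: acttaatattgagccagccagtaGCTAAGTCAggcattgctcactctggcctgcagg

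The CCAAT boxes shown begin 98 (Psma1), 54 (Psma2), 139 (Psma3), 136 (Psma6) and 196 (Psma7) bases before the RefSeq start. Psma1 has a second box 126 bases and Psma6 a second box 29 bases before the start, and Psma3 has boxes after it. Psma4 and Psma5, the other 2 α genes, had windows without one, with log2 fold changes of 0.47 and 0.34, while the 5 with one ran from 0.38 to 0.62. With the offset these were 0.23 and 0.14, against 0.11 to 0.48 for the 5. Outside the α genes Psmb3 and Psmd4 had a box and rose. Psmb9, Psmc1, Psmc2, Psmc3ip, Psmd10, Psmd14 and Psme3 had a box and did not pass, and Psmb11 had a box and no read. A tie between the box and the change was not tested. ATTGG in Psma6 is the same box read on the other strand, and so is GCTAAGTCA in Psmc6 for the antioxidant element. Of the genes with an antioxidant element shown, Psmb5 and Psmc6 rose and Psmb6 did not pass, and with the offset Psmb5 was not called. Psmd9, Psmd12 and Psme4, the other genes with the element, did not pass, at edgeR adjusted p-values of 0.531, 0.0979 and 0.101.

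Among the 7 constitutive β genes, 6 rose (13.2% of all genes did) and Psmb6 did not, with a median log2 fold change of 0.49. Psmb3, a structural subunit on chromosome 11 (97703399 to 97713500, plus strand), had the largest rise of the β genes. It had 90.6, 89.0 and 93.4 CPM in the STAT3cKO hearts, against 57.9, 52.1 and 53.0 CPM in the wild-type hearts, so that the lowest STAT3cKO heart stood far above the highest wild-type heart. Its log2 fold change was 0.74 ± 0.08 (SE, adjusted p = 0.000187) in edgeR, and 0.38 with the offset (adjusted p = 0.00759). In the annotation 55.8% of its 50-base stretches also occur in another gene, so its count is uncertain where the authors' counting split such reads. Psmb7, which carries the trypsin-like site, had 165, 168 and 170.3 CPM in the STAT3cKO hearts, against 126, 105 and 108 CPM in the wild-type hearts. Its groups did not overlap and its log2 fold change was 0.57 ± 0.09 (SE, adjusted p = 0.00134) in edgeR. Psmb4 had 124, 130.0 and 128 CPM in the STAT3cKO hearts, against 98.7, 89.5 and 82.3 CPM in the wild-type hearts, with a log2 fold change of 0.50 ± 0.09 (SE, adjusted p = 0.00227). With the offset the log2 fold changes were 0.34 for Psmb7 and 0.29 for Psmb4, and both were called.

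Psmb5, which carries the chymotrypsin-like site, had 50.6, 52.2 and 52.7 CPM in the STAT3cKO hearts, against 45.5, 33.9 and 31.0 CPM in the wild-type hearts. Wild-type heart 1 stood near the STAT3cKO hearts and the other two well below. Its log2 fold change was 0.49 ± 0.13 (SE, adjusted p = 0.0151) in edgeR, and the call was lost without wild-type heart 3 (adjusted p = 0.0615), without wild-type heart 4 (0.0658) and with the offset, where the log2 fold change was 0.16 (0.295). Its transcript shares 57.1% of its 50-base stretches with other genes. Psmb1 rose with a log2 fold change of 0.47 ± 0.09 (SE, adjusted p = 0.00222). Psmb2 had a log2 fold change of 0.42 ± 0.12 (SE, adjusted p = 0.0233), with STAT3cKO heart 6 at 94.0 CPM, above hearts 3 and 91 at 73.1 and 68.8 CPM. Without heart 6 its adjusted p in edgeR was 0.0631, without wild-type heart 3 it was 0.0919, without wild-type heart 4 it was 0.0794, and with the offset, at a log2 fold change of 0.10, it was 0.573.

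**Figure D3:**
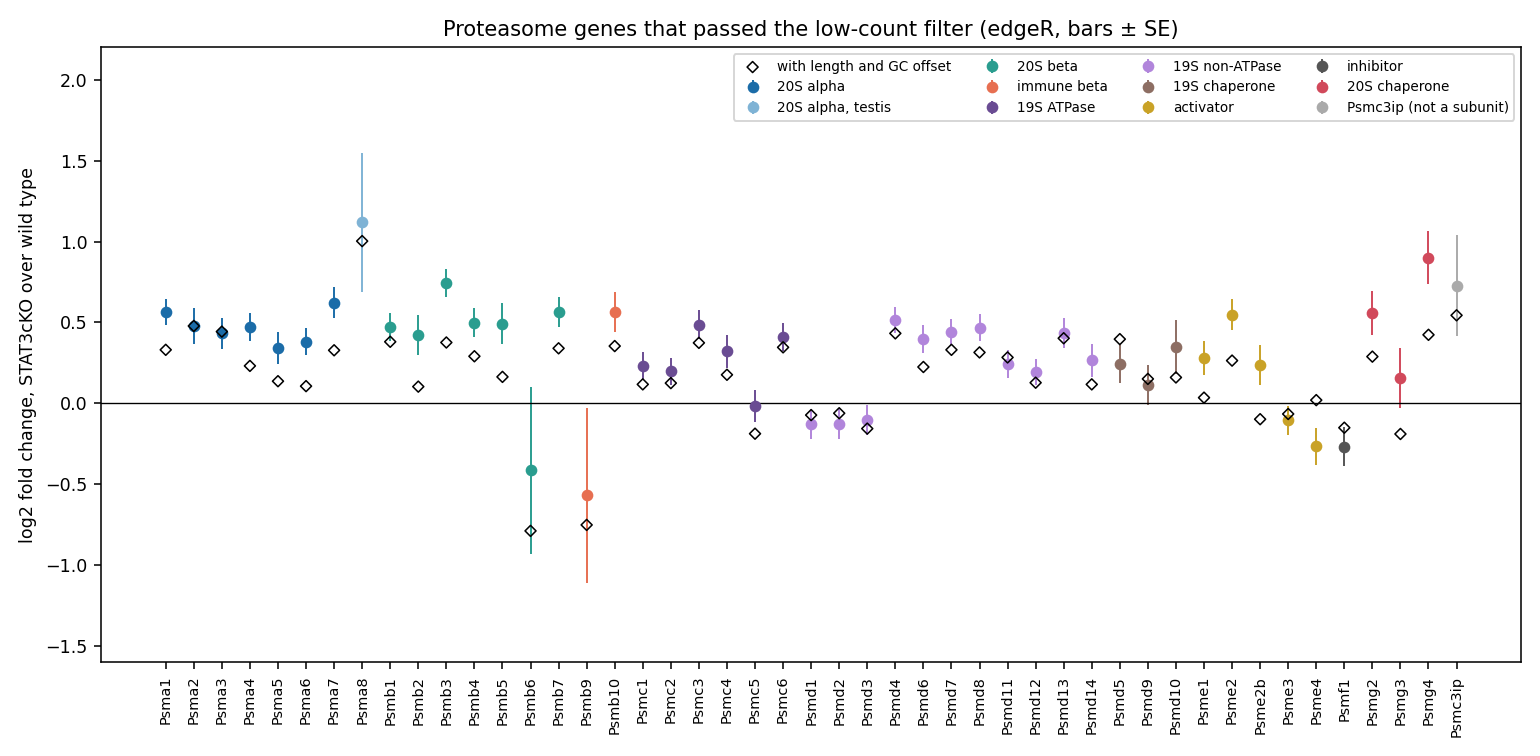
Log2 fold change of the 47 proteasome genes tested, STAT3cKO over wild type, in edgeR. Filled points with bars are the estimate ± SE, coloured by role, and open diamonds are the estimates with the length and GC offset. The core genes lie above 0 except Psmb6, and most diamonds lie between the points and 0.

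Psmb6, the subunit with the caspase-like site, was the one constitutive β gene that did not pass. It had 18, 21 and 29 reads in the STAT3cKO hearts, against 17, 63 and 19 reads in the wild-type hearts, and its log2 fold change of -0.41 ± 0.52 (SE, adjusted p = 0.589) did not pass in edgeR. Wild-type heart 3 held most of the wild-type reads. Per length, Psmb6 reached 1.75 ± 0.228 CPM per kb in STAT3cKO hearts and 2.37 ± 2.03 CPM per kb in wild-type hearts (SD, n = 3 each), whereas the other 6 constitutive β genes averaged 57.7 to 145 CPM per kb in STAT3cKO hearts and 41.0 to 97.7 CPM per kb in wild-type hearts. Low counts were not limited to this gene. Of the 20 protein-coding genes that flank Psmb6 on chromosome 11, 2 had a mean count of at least 100 over the 6 hearts. The same held for 0 of 20 around Psmb8 and around Psmb9 on chromosome 17 and for 3 of 20 around Psmg1 on chromosome 16. Around the other 46 rows at least 6 of 20 did, with a median of 11, against 10 over all genes. Brd2, a gene near Psmb8 and Psmb9 that most cells use, had 1, 4 and 4 reads in STAT3cKO hearts 3, 6 and 91, against 5, 5 and 5 in wild-type hearts 1, 3 and 4. Pfn1, the profilin gene near Psmb6, had 39, 49 and 65 reads in the STAT3cKO hearts, against 43, 44 and 35 in the wild-type hearts. The cause was not tested, and the levels of Psmb6, Psmb8, Psmb9 and Psmg1 are given as counted.

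The immune subunits split by their counts. Psmb8, which takes the place of Psmb5, had 0, 5 and 2 reads in the STAT3cKO hearts, against 1, 0 and 2 reads in the wild-type hearts, too few to be tested. Psmb9, which takes the place of Psmb6, had 10, 2 and 19 reads in the STAT3cKO hearts, against 20, 18 and 13 reads in the wild-type hearts. Its groups overlapped, STAT3cKO heart 6 was lowest, and the log2 fold change of -0.57 ± 0.54 (SE, adjusted p = 0.468) did not pass in edgeR. Psmb10, which takes the place of Psmb7, was well counted, with 673, 667 and 1068 reads in the STAT3cKO hearts, against 710, 496 and 615 reads in the wild-type hearts. In CPM these were 45.9, 43.3 and 58.5 CPM in the STAT3cKO hearts, against 36.5, 29.6 and 33.7 CPM in the wild-type hearts, with no overlap and STAT3cKO heart 91 highest. Summed leukocyte markers were likewise highest among the STAT3cKO hearts in heart 91, at 431 CPM, with 306 CPM in heart 3 and 304 CPM in heart 6. Lyz2 alone had 286 CPM in heart 91. Between the groups the sums went the other way from Psmb10, with 515, 459 and 407 CPM in wild-type hearts 1, 3 and 4. The part of leukocytes in the Psmb10 result was not tested. Psmb10 rose with a log2 fold change of 0.56 ± 0.13 (SE, adjusted p = 0.00672) in edgeR, and stayed called when any heart was left out, with adjusted p-values of 0.00323 to 0.0325. With the offset its log2 fold change was 0.35 (adjusted p = 0.0554), and it was not called.

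Each immune subunit was also set against the constitutive subunit it replaces. The log2 ratio of Psmb10 to Psmb7 (CPM plus 0.5) was -1.84, -1.94 and -1.53 in the STAT3cKO hearts, against -1.78, -1.81 and -1.67 in the wild-type hearts. The groups overlapped and differed by -0.02, less than the spread between hearts, at p = 0.9 in a two-sided exact permutation test (0.9 adjusted over 3 ratios). For Psmb8 to Psmb5 the log2 ratio was -6.68, -6.00 and -6.45 in the STAT3cKO hearts, against -6.38, -6.11 and -5.69 in the wild-type hearts, a difference of -0.31 (exact permutation p = 0.4, adjusted 0.75). For Psmb9 to Psmb6 it was -0.55, -1.56 and -0.44 in the STAT3cKO hearts, against 0.15, -1.44 and -0.35 in the wild-type hearts, a difference of -0.31 (exact permutation p = 0.5, adjusted 0.75). With 3 hearts against 3 the smallest p this test can give is 0.1, so none could pass 0.05. The ratios with Psmb8 and Psmb9 rest on few reads. Psmb6, Psmb8 and Psmb9 also lie in the stretches described above, where most flanking genes had low counts. Those ratios therefore cannot tell whether immune subunits replaced constitutive subunits. Leaving out STAT3cKO heart 6 or wild-type heart 1 turned the sign of the ratio with Psmb9, to 0.05 and 0.04.

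**Figure D4:**
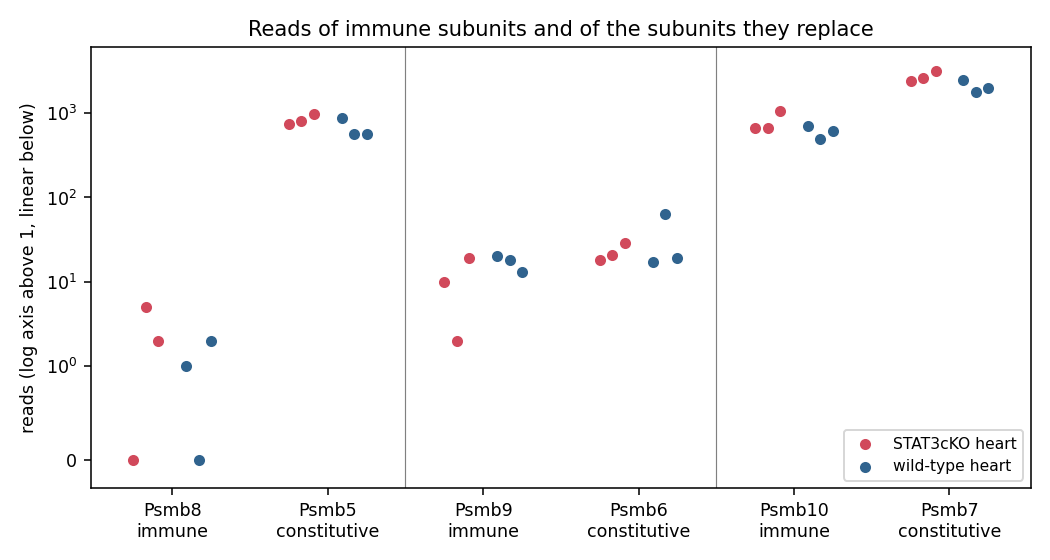
Reads of the immune subunits Psmb8, Psmb9 and Psmb10 beside the constitutive subunit each replaces, one point per heart, STAT3cKO left of wild type (log axis above 1 read, linear below). Psmb8 has 0 to 5 reads in a heart and Psmb9 2 to 20, while Psmb10 has 496 to 1068 and lies below Psmb7 in every heart.

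Genes that act with the immune subunits were counted from a list of interferon and antigen presentation genes. Of 9 tested, 1 rose (11.1%, against 13.2% of all genes) and 0 fell (against 12.6%), with a median log2 fold change of 0.01. The one that rose was B2m, the light chain of MHC class I, which had 6274, 8062 and 11597 reads in the STAT3cKO hearts, against 6688, 5453 and 5027 reads in the wild-type hearts. Its log2 fold change was 0.75 ± 0.14 (SE, adjusted p = 0.00313) in edgeR and 0.38 with the offset (adjusted p = 0.0442). The peptide transporter genes Tap1 and Tap2, which neighbour Psmb8 and Psmb9, had at most 11 reads in any heart. They lie in the same stretch of low counts, where Brd2 had 1 to 5 reads, so their levels are given as counted. The regulator Irf1 had a log2 fold change of -0.12 ± 0.15 (SE, adjusted p = 0.595) and did not pass in edgeR.

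In the 19S cap 8 of 17 subunits rose, 9 did not pass and 0 fell, with a median log2 fold change of 0.27. In the constitutive core 13 of 14 rose, with a median of 0.48. Of all genes tested 13.2% rose and 12.6% fell. With the offset 7 of 17 and 8 of 14 were called higher, against 10.5% of all genes, with medians of 0.18 and 0.31. Summed over subunits, the log2 ratio of core to 19S transcripts in CPM per kb was 0.20, 0.23 and 0.21 in STAT3cKO hearts 3, 6 and 91, against 0.04, -0.07 and -0.08 in wild-type hearts 1, 3 and 4. With the length and GC trend removed it was 0.12, 0.15 and 0.13 in the STAT3cKO hearts, against 0.08, 0.02 and 0.03 in the wild-type hearts. The groups did not overlap on either scale, and they lay closer together with the trend removed. The difference between the core and the cap was not tested.

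Of the 6 ATPases 3 rose (13.2% of all genes did), with a median log2 fold change of 0.28. Psmc3, on chromosome 2 (91054009 to 91066369, plus strand), had 224, 228 and 228 CPM in the STAT3cKO hearts, against 175, 158 and 152 CPM in the wild-type hearts. The STAT3cKO hearts lay close together and above all wild-type hearts, with a log2 fold change of 0.49 ± 0.09 (SE, adjusted p = 0.00241) in edgeR. Psmc6 had 128, 129.9 and 133 CPM in the STAT3cKO hearts, against 94.9, 92.9 and 106 CPM in the wild-type hearts, again with no overlap, and a log2 fold change of 0.41 ± 0.09 (SE, adjusted p = 0.00528). Psmc4 had 60.5, 74.3 and 61.9 CPM in the STAT3cKO hearts, against 56.1, 50.3 and 50.8 CPM in the wild-type hearts. Its highest wild-type heart was close to its lowest STAT3cKO heart, and its log2 fold change was 0.32 ± 0.10 (SE, adjusted p = 0.0335) in edgeR. The Psmc4 call was lost without STAT3cKO heart 6 (adjusted p = 0.102), without wild-type heart 3 (0.117), without wild-type heart 4 (0.105) and with the offset, where the log2 fold change was 0.18 (0.227). Psmc1 and Psmc2 had log2 fold changes of 0.23 and 0.20 and did not pass, at adjusted p-values of 0.0692 and 0.101. Psmc5 had 69.5, 62.0 and 69.9 CPM in the STAT3cKO hearts, against 76.5, 64.2 and 63.1 CPM in the wild-type hearts, overlapping groups and a log2 fold change of -0.02 ± 0.10 (SE, adjusted p = 0.912).

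Of the 11 non-ATPase subunits 5 rose (13.2% of all genes did), with a median log2 fold change of 0.27. Psmd4, a ubiquitin receptor on chromosome 3 (95032694 to 95042614, minus strand), had 93.6, 96.6 and 95.1 CPM in the STAT3cKO hearts, against 68.6, 67.5 and 63.6 CPM in the wild-type hearts. Its groups stood well apart, with a log2 fold change of 0.51 ± 0.08 (SE, adjusted p = 0.00107) in edgeR. Psmd8, a lid subunit, had 110.0, 110.4 and 108 CPM in the STAT3cKO hearts, against 84.8, 77.8 and 75.3 CPM in the wild-type hearts, and its log2 fold change was 0.47 ± 0.08 (SE, adjusted p = 0.0022). Psmd7, the lid partner of the deubiquitinase Psmd14, had 104, 102 and 105 CPM in the STAT3cKO hearts, against 75.4, 78.7 and 74.2 CPM in the wild-type hearts. None of these overlapped between groups, and the log2 fold change of Psmd7 was 0.44 ± 0.08 (SE, adjusted p = 0.00228). Psmd13, another lid subunit, had 69.8, 63.5 and 75.1 CPM in the STAT3cKO hearts, against 54.3, 49.2 and 50.7 CPM in the wild-type hearts, with a log2 fold change of 0.43 ± 0.09 (SE, adjusted p = 0.0056). Psmd6 was the fifth, at 0.40 ± 0.09 (SE, adjusted p = 0.00612). With the offset Psmd6 had a log2 fold change of 0.22 and was not called (adjusted p = 0.0834), and Psmd11, a lid subunit with a log2 fold change of 0.24 and an adjusted p of 0.0535 at first, was called (0.0328).

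The scaffold subunits Psmd1 and Psmd2 of the cap base and the lid subunit Psmd3 had small negative values. Psmd1 had 118, 125 and 113 CPM in the STAT3cKO hearts, against 120.2, 126 and 143 CPM in the wild-type hearts, with overlapping groups and a log2 fold change of -0.13 ± 0.09 (SE, adjusted p = 0.338) in edgeR. Psmd2 had 177, 179 and 156 CPM in the STAT3cKO hearts, against 196, 174 and 189 CPM in the wild-type hearts, also overlapping, and its log2 fold change was -0.12 ± 0.09 (SE, adjusted p = 0.35). Psmd3 had a log2 fold change of -0.10 ± 0.09 (SE, adjusted p = 0.454). With the offset these 3 stayed at -0.07, -0.06 and -0.16 and did not pass. Psmd14, the deubiquitinase, and Psmd12 had log2 fold changes of 0.27 and 0.19 and did not pass, at adjusted p-values of 0.0725 and 0.0979, although in both every STAT3cKO heart was above every wild-type heart.

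**Figure D5:**
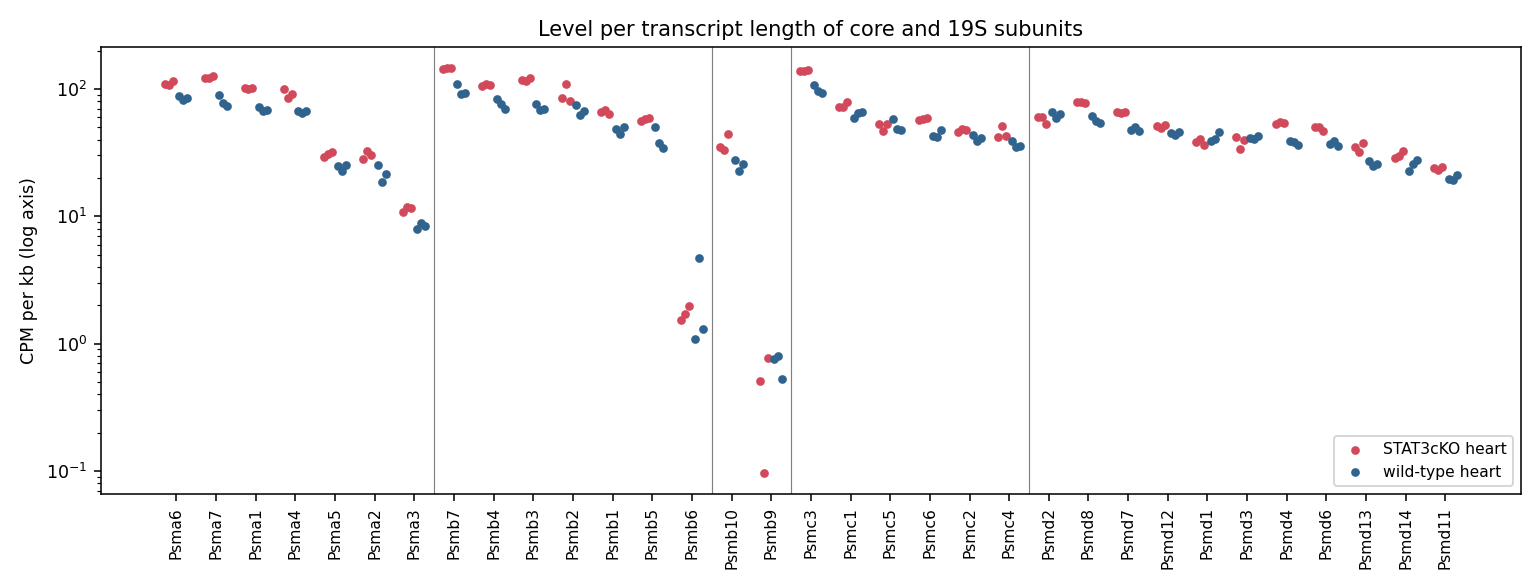
CPM per kb of transcript of the core and 19S subunits in each heart (log axis), STAT3cKO left of wild type within each gene. Vertical lines separate α, β, immune, ATPase and non-ATPase genes, ordered by level in wild-type hearts. Psmb7 and Psmc3 are highest, and Psmb6 and Psmb9 lie far below the other genes plotted. Psmb8, which was not tested, is left out.

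Levels per length showed how the subunits ranked within a complex. The 7 α genes summed to 501, 488 and 509.9 CPM per kb in STAT3cKO hearts 3, 6 and 91, against 373, 341 and 348 CPM per kb in wild-type hearts 1, 3 and 4. The 7 constitutive β genes summed to 575, 608 and 582 CPM per kb in the STAT3cKO hearts, against 443, 384 and 385 CPM per kb in the wild-type hearts. Both rings were higher in every STAT3cKO heart. The ATPases summed to 408, 417 and 422 CPM per kb in the STAT3cKO hearts, against 349.9, 325 and 332 CPM per kb in the wild-type hearts. The non-ATPase subunits summed to 527, 518 and 520.1 CPM per kb in the STAT3cKO hearts, against 445, 435 and 445 CPM per kb in the wild-type hearts. Psmb7 and Psmc3 had the highest single levels, 145 ± 2.15 CPM per kb in STAT3cKO hearts and 97.7 ± 9.84 CPM per kb in wild-type hearts (SD, n = 3 each) for Psmb7 and 139 ± 1.37 CPM per kb in STAT3cKO hearts and 99.0 ± 7.22 CPM per kb in wild-type hearts (SD, n = 3 each) for Psmc3. In the wild-type hearts the pair differed by less than the spread between hearts. Among the α genes Psma7 had the highest mean in the STAT3cKO hearts and Psma6 in the wild-type hearts. In the wild-type hearts these means differed by less than the spread of Psma7 between hearts. Psma7 had 124 ± 2.76 CPM per kb in STAT3cKO hearts and 80.3 ± 8.52 CPM per kb in wild-type hearts (SD, n = 3 each), and Psma6 had 110.4 ± 4.73 CPM per kb in STAT3cKO hearts and 84.7 ± 3.02 CPM per kb in wild-type hearts (SD, n = 3 each). Replicates were tight: the median coefficient of variation of the 14 constitutive core genes was 3.68% in STAT3cKO hearts and 7.66% in wild-type hearts, and that of the 17 cap genes was 4.45% in STAT3cKO hearts and 5.50% in wild-type hearts.

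The Psmg genes encode chaperones that assemble the core, and 2 of the 3 tested rose, against 13.2% of all genes. Psmg4, on chromosome 13 (34162964 to 34178173, plus strand), had 8.73, 9.35 and 10.5 CPM in the STAT3cKO hearts, against 5.51, 5.13 and 4.66 CPM in the wild-type hearts. The groups stood far apart for a gene of this level, and its log2 fold change of 0.90 ± 0.16 (SE, adjusted p = 0.00219) in edgeR was the largest among the members called. Its representative transcript is also the shortest of the members, 555 nt, and with the offset its log2 fold change was 0.42 (adjusted p = 0.078). Psmg2 had 23.8, 25.5 and 24.1 CPM in the STAT3cKO hearts, against 16.9, 13.2 and 19.6 CPM in the wild-type hearts, with a log2 fold change of 0.56 ± 0.14 (SE, adjusted p = 0.0103), and 0.29 with the offset (0.171). Psmg3 had a log2 fold change of 0.16 ± 0.19 (SE, adjusted p = 0.565). Psmg1 had 4, 9 and 4 reads in the STAT3cKO hearts, against 6, 4 and 2 reads in the wild-type hearts and was not tested. Of the 3 chaperones of the 19S base 0 passed. Psmd5, the one with the smallest p, had 21.4, 21.2 and 23.9 CPM in the STAT3cKO hearts, against 20.95, 18.2 and 17.1 CPM in the wild-type hearts, and its log2 fold change was 0.24 ± 0.12 (SE, adjusted p = 0.142) in edgeR and 0.40 with the offset (adjusted p = 0.0365). Psmd9 and Psmd10 had log2 fold changes of 0.11 and 0.35.

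Of the 5 activator genes 1 rose (20%, against 13.2% of all genes). Psme2, a subunit of the interferon-inducible activator ring, had 29.1, 29.7 and 30.1 CPM in the STAT3cKO hearts, against 20.5, 20.6 and 19.6 CPM in the wild-type hearts, with no overlap and a log2 fold change of 0.55 ± 0.10 (SE, adjusted p = 0.00189) in edgeR. It shares 59.3% of its 50-base stretches with other genes, chiefly Psme2b, whose log2 fold change was 0.24 ± 0.12 (SE, adjusted p = 0.169). With the offset Psme2 had a log2 fold change of 0.26 (adjusted p = 0.0731). Psme1, its partner in the ring, had 81.7, 99.3 and 83.7 CPM in the STAT3cKO hearts, against 80.9, 66.2 and 70.4 CPM in the wild-type hearts. Wild-type heart 1 lay just below the lowest STAT3cKO heart, and the log2 fold change of 0.28 ± 0.11 (SE, adjusted p = 0.0656) did not pass. Without wild-type heart 1 the adjusted p of Psme1 was 0.0436. Psme3, the nuclear activator, had a log2 fold change of -0.11 ± 0.09 (SE, adjusted p = 0.42). Psme4, the activator known from acetylated histone turnover in the testis, had 309, 304 and 318 CPM in the STAT3cKO hearts, against 365, 319.7 and 435 CPM in the wild-type hearts. All STAT3cKO hearts were below all wild-type hearts, and the log2 fold change of -0.27 ± 0.11 (SE, adjusted p = 0.101) did not pass, with 0.02 under the offset. Scaled by library size alone Psme4 was lower (adjusted p = 0.028), a scaling that moved the median of all genes to -0.11, and without the low-count filter it was lower too (0.0335).

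Psmf1, an inhibitor that binds the core, had 13.4, 15.5 and 13.9 CPM in the STAT3cKO hearts, against 17.2, 18.4 and 15.9 CPM in the wild-type hearts. The STAT3cKO hearts lay below the wild-type hearts, but the log2 fold change of -0.27 ± 0.12 (SE, adjusted p = 0.118) did not pass in edgeR. It passed as lower when scaled by library size alone (adjusted p = 0.0434). Psmb11, the thymus subunit, had no read in any heart. Psmc3ip, the gene that matches the rule by name only, had 23, 40 and 44 reads in the STAT3cKO hearts, against 27, 25 and 20 reads in the wild-type hearts, and its log2 fold change of 0.73 ± 0.31 (SE, adjusted p = 0.104) did not pass.

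Genes around the proteasome were counted from lists by role. Of 12 other proteasome components and cofactors tested, 3 rose (25%, against 13.2% of all genes) and 1 fell (8.33%, against 12.6%), with a median log2 fold change of 0.13. Shfm1, a small 19S subunit outside the Psm names, had 2639, 2440 and 3449 reads in the STAT3cKO hearts, against 2354, 1663 and 1647 reads in the wild-type hearts, and its log2 fold change was 0.76 ± 0.12 (SE, adjusted p = 0.000853) in edgeR. Pomp, the maturation factor of the core, had 1327, 1376 and 1931 reads in the STAT3cKO hearts, against 1277, 931 and 1185 reads in the wild-type hearts, and its log2 fold change was 0.62 ± 0.10 (SE, adjusted p = 0.00127). Both also passed with the offset, at 0.61 and 0.50 (adjusted p = 0.00425 each), though Shfm1 has no matched length. Ube3c, a ubiquitin ligase that binds the proteasome, fell, with a log2 fold change of -0.38 ± 0.09 (SE, adjusted p = 0.00876), and did not pass with the offset, at -0.17 (0.199). Of 12 shuttle and segregase genes, which bring substrates to the proteasome, 1 rose (8.33%, below the 13.2% of all genes) and 0 fell (against 12.6%). It was Nsfl1c, a cofactor of the segregase VCP, at 0.44 ± 0.09 (SE, adjusted p = 0.00354).

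Of 6 genes for ubiquitin and its activating enzymes 3 rose (50%, against 13.2% of all genes) and 1 fell (16.7%, against 12.6%). With the offset 1 was higher and 1 lower, where 10.5% and 7.77% of all genes were. Rps27a, which encodes ubiquitin fused to a ribosomal protein, had 112, 112 and 124 reads in the STAT3cKO hearts, against 86, 57 and 60 reads in the wild-type hearts, and a log2 fold change of 0.96 ± 0.19 (SE, adjusted p = 0.00377). Of its 50-base stretches 57.0% occur in other genes too. Uba6, a ubiquitin-activating enzyme, had 143, 108 and 149 reads in the STAT3cKO hearts, against 236, 209 and 246 reads in the wild-type hearts. Uba6 fell, with a log2 fold change of -0.61 ± 0.15 (SE, adjusted p = 0.0105) in edgeR and -0.55 with the offset (adjusted p = 0.0239).

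Of 15 regulators of proteasome genes tested, 3 were higher (20%, against 13.2% of all genes) and 3 lower (20%, against 12.6%). With the offset Maff, Mafg and Foxo3 were higher and 0 were lower, and Ddi2, Sel1l and Nfya, the 3 lower without it, had adjusted p-values of 0.306, 0.0547 and 0.079 in edgeR. Nfyc, one of the 3 higher, was not called with the offset (0.0861) or when any 1 heart was left out. Nfe2l1 had 6609, 5999 and 8079 reads in the STAT3cKO hearts, against 9409, 8273 and 9480 reads in the wild-type hearts. In CPM this was 428 ± 33.3 CPM in STAT3cKO hearts and 499 ± 18.5 CPM in wild-type hearts (SD, n = 3 each), and the log2 fold change of -0.22 ± 0.10 (SE, adjusted p = 0.107) did not pass in edgeR, except when scaled by library size alone (adjusted p = 0.0324). Ddi2, the protease that cleaves NFE2L1 into its active form, fell, with 96, 101 and 80 reads in the STAT3cKO hearts, against 196, 151 and 158 reads in the wild-type hearts and a log2 fold change of -0.67 ± 0.19 (SE, adjusted p = 0.0188), which did not pass without STAT3cKO heart 91 (0.0647) or without wild-type heart 1 (0.0714). Maff, a small Maf partner of the NFE2L factors, had 111, 193 and 253 reads in the STAT3cKO hearts, against 106, 92 and 85 reads in the wild-type hearts. STAT3cKO heart 3 lay nearest to the wild-type hearts, and the log2 fold change was 1.13 ± 0.21 (SE, adjusted p = 0.00291) in edgeR and 1.05 with the offset (adjusted p = 0.00558). Mafg, another small Maf gene, rose at 0.53 ± 0.12 (SE, adjusted p = 0.00666). The transcript level of a regulator does not measure its activity.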

How the data were processed

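Total RNA from 6 mouse hearts was sequenced. Per the labels' protocols it was extracted with Trizol, and RNA of high integrity went into standard Illumina libraries. The authors deposited raw counts of reads per gene, with no normalization, and per the submitters' processing notes HISAT2 and GRCm38 were used. How reads were assigned to genes (program, annotation, strand, multiple matches) is not given in the sources used here. Reads of overlapping genes and near-identical copies are therefore uncertain.

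Counts were filtered by filterByExpr (minimum count 10), scaled by TMM and compared with the robust quasi-likelihood F test of edgeR 4.0.16 in R 4.3.3, with genotype as the only term. P-values were adjusted by Benjamini-Hochberg across the 14484 genes that passed, and "rose", "fell", "higher" and "lower" mean an adjusted p under 0.05. SE is the log2 fold change over the root of its F statistic. The fit was tested on simulated counts. Depth per heart is given with the results and limits the precision for genes with few reads. Alternatives were DESeq2 size factors, upper-quartile factors, library size alone, no filter, a stricter filter (1 CPM in 3 hearts and a mean count of 50), DESeq2 1.42.0, limma-voom (limma 3.58.1), removal of mitochondrial and haemoglobin genes, leaving out each heart, and an offset. The offset is a spline trend (5 degrees of freedom) of log2 CPM, as each heart's deviation from the gene's mean, against GC content and log2 transcript length. Lengths came from a single transcript per gene of GENCODE M21 (GRCm38). Basic transcripts were taken first, then those with an APPRIS tag, with alternative tags before principal ones, then the longest. The transcript used is thus not always the principal one. A length was found for 93.8% of genes tested, and genes without one took the median deviation of such genes. Ratios used CPM plus 0.5, with 0.1 as an alternative.

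Genes named with values per heart were Psmb8, Psmb9, Psmb10, Psme1, Psme2, Psmf1, Stat3 and Nfe2l1, then in each other role up to 4 members (3 in lists of other genes) with the largest change among those called, or the member with the smallest p. Psmb6, Psmc5, Psmd1, Psmd2, Psme4, Psmg1, and the other genes given without being taken by that rule, were chosen after their values were seen. Some genes of the lists are not reported here by name and remain in the counts. The members, roles and lists were chosen with earlier results of these data known.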

Additional observations from a re-analysis of the deposited data

How the results depend on the processing

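The count of members higher was 25 in edgeR, 16 with the length and GC offset, 20 with library size alone (Psma5, Psma6, Psmb2, Psmb5 and Psmc4 not called), and 21 to 26 when 1 heart was left out. The count lower was 0, but 2 with library size alone (Psme4 and Psmf1) and 1 without the low-count filter (Psme4), and 0 each time 1 heart was left out. The log2 ratio difference of Psmb9 to Psmb6, -0.31, ran from -0.754 to 0.0497 with 1 heart left out, and was 0.0497 without STAT3cKO heart 6 and 0.0408 without wild-type heart 1. That of Psmb10 to Psmb7, -0.02, was 0.00222 with the offset and ran from -0.137 to 0.0667 with 1 heart left out, at 0.0138 without STAT3cKO heart 3, 0.0667 without STAT3cKO heart 6 and 0.024 without wild-type heart 4. That of Psmb8 to Psmb5, -0.31, ran from -0.50 to -0.13, and no value with the offset exists because Psmb8 was not in that fit. With 0.1 in place of 0.5 CPM added, the differences were -0.0166 for Psmb8 to Psmb5, -0.668 for Psmb9 to Psmb6 and -0.0152 for Psmb10 to Psmb7. Psmb8 had at most 0.325 CPM in a heart, below the 0.5 CPM added, so its ratio depends on the added value and on Psmb5. Its mean was 0.145 CPM in STAT3cKO hearts and 0.0537 CPM in wild-type hearts. Of 552 values of 37 named genes under the alternatives, 530 kept their direction and side of the threshold, 18 lost it and 4 gained it. Many of these genes were named for a large change among those called, and many alternatives differ little from the main fit. The pooled count therefore says little about stability. With the offset 27 of the 37 kept it, 9 lost it and 1 gained it, and 11 of the 25 members first called higher were not called. No paired analysis was possible because the groups share only 1 replicate number. Depth limits Psmb6, Psmb8, Psmb9, Psmg1 and Psma8, and 3 hearts a group limit all tests.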
